A study of Mus musculus with 3 samples.

Results

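The cell cycle and DNA replication genes were followed through a RIP-seq experiment (RNA immunoprecipitation followed by sequencing) on nuclear RNA of untreated CCE cells, mouse embryonic stem cells kept on gelatin without a feeder layer and with leukemia inhibitory factor. Members were chosen by name among the transcripts that the authors' tables list. That listing rests on measured values, as set out below. They were the protein-coding transcripts of genes whose symbols begin as those of the Mcm, Orc, Gins, Rfc and DNA polymerase alpha, delta and epsilon genes, the lettered and numbered cyclins, the Cdk and Cdc genes (the GTPase Cdc42 and its namesakes left out) and the E2f factors. The authors' tables held 84 such transcripts of 65 genes, of 13595 transcripts in all. In the Mettl3 table there were 62 of them, from 54 genes, and in the Zfp217 table there were 50, from 42 genes.

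There were 3 libraries, 1 each of RNA bound by Mettl3 (Mettl3 RIP), RNA bound by Zfp217 (Zfp217 RIP) and input RNA of the nuclear lysate. All came from the same unmodified cell line, and with 1 library per group the differences have no replicate check and no p-value is given. A control immunoprecipitation was not analysed here, so RNA held by beads or antibody alone cannot be told apart from RNA bound by the protein. Levels are FPKM (fragments corrected for transcript length and for the depth of the library), made by the authors for each transcript. The tables list only transcripts that reach 1 FPKM in the RIP and exceed the input by 1.5-fold or more, so that every listed member was higher in the RIP by construction, and what can be described is how far, and from what input level. Both tables share the input library. Estimated depth was 9700000 fragments for the Mettl3 RIP, 7000000 for the Zfp217 RIP and 5800000 for the input. Of 10 embryonic stem cell markers 8 were listed in each table, Nanog and Sox2 among them. Of 6 fibroblast markers 1 was listed, Vim, at 18.2 FPKM in the Mettl3 RIP and 0.0217 FPKM in the input. In the Zfp217 table Vim lay between 2.77 and 19.7 FPKM in the RIP and between 0.0256 and 1.48 FPKM in the input. Since listing requires an excess in the RIP, a marker that is not listed may still be expressed. A bulk level cannot tell fewer cells with an RNA from less RNA per cell.

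As background, the cell cycle is driven by cyclins, which bind and switch on cyclin-dependent kinases (CDKs). Before S phase the origin recognition complex, Cdc6 and the MCM helicase are loaded on origins, and Cdc45 and the GINS complex then turn the helicase on so that the polymerases and the clamp loader RFC can copy the DNA. E2F factors switch on many of these genes, and embryonic stem cells are known for a short cycle with little time before S phase. Mettl3 carries the methyltransferase activity that turns adenosines of mRNA into m6A, often within a GGACT motif, and Zfp217 is a DNA-binding zinc finger factor found with chromatin repressors. Some genes carry a Cdk or Cdc name but work wholly or in part elsewhere, and they were kept as a group of their own. Cyclins and CDKs of transcription and splicing, such as Ccnt1 and Cdk9, stayed in the cyclin and kinase groups.

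GGACT, a sequence in which Mettl3 is known to methylate the A, is shown in the members that lead their roles. For each role and table this was the transcript with the highest ratio among those at 1 FPKM or more in the input that hold GGACT in their GENCODE M21 coding sequence, away from exon ends. The members that carry a Cdk or Cdc name but work elsewhere are not shown. Each is the last GGACT of the coding sequence (capitals) with 10 bases on either side, read 5′ to 3′ on the sense strand and written as DNA. Methylation was not measured, and a match is a description of the letters only.
Ccng1: tgggtgtgttGGACTgagctgcttt
Cdk12: catccaaacaGGACTtacggaaata
Cdk9: gcagagatgtGGACTcgtagcccta
Cdkn1b: aactaacccgGGACTtggagaagca
Cdc27: ttacaaaactGGACTcctctatcat
Cdc45: accagctctcGGACTctacacaatt
E2f8: gcagcacttgGGACTcatctccccg
In GRCm38 these windows lie at chr11:40752316-40752340 (minus strand) for Ccng1, chr11:98249919-98249943 (plus strand) for Cdk12 and chr2:32709538-32709562 (minus strand) for Cdk9. The Cdkn1b window lies at chr6:134921038-134921062 (plus strand) and is shared by both listed Cdkn1b transcripts. The others lie at chr11:104521449-104521473 (minus strand) for Cdc27, chr16:18784821-18784845 (minus strand) for Cdc45 and chr7:48867828-48867852 (minus strand) for E2f8. All 7 windows lie in coding exons.

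The Mettl3 RIP was first set against the input. Cyclin mRNAs held the highest levels of all members: their median was 16.4 FPKM in the Mettl3 RIP over 8 transcripts, against 4.33 FPKM over all 62 members. Ccng1, a cyclin G induced by p53, had 67.0 FPKM in the Mettl3 RIP, against 16.2 FPKM in the input, a ratio of 4.14-fold (interval at 95% for counting error only, 3.68 to 4.67). It was the most abundant member in the Mettl3 RIP and rested on about 2193 fragments there.

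The D-type cyclins Ccnd3 and Ccnd2 carry growth signals to Cdk4 and Cdk6. Ccnd3 had 55.4 FPKM in the Mettl3 RIP, against 28.4 FPKM in the input, 1.95-fold higher (1.71 to 2.22). Ccnd2 had 19.5 FPKM in the Mettl3 RIP, against 7.39 FPKM in the input, 2.64-fold higher (2.31 to 3.03). Neither coding transcript was listed for Zfp217. Cyclins T, the partners of Cdk9 in the elongation factor P-TEFb, made up the next group. Ccnt1 had 12.3 FPKM in the Mettl3 RIP, against 4.65 FPKM in the input, 2.64-fold higher (2.26 to 3.10). Of Ccnt2, the transcript ENSMUST00000027587 had 7.34 against 2.24 FPKM, 3.28-fold (2.60 to 4.18). The Ccnt2 transcript ENSMUST00000112570 had 13.2 against 7.02 FPKM, 1.89-fold (1.59 to 2.25), and it was the only 1 of these cyclin T transcripts listed for Zfp217.

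Ccng2, a cyclin G linked to cell cycle exit, was low in every library, at 1.30 FPKM in the Mettl3 RIP and 0.322 FPKM in the input, and its interval was wide (4.03-fold, 1.5 to 14.2). Ccnb1, the mitotic partner of Cdk1, was at 22.8 FPKM in the Mettl3 RIP and was listed at 0 FPKM in the input. Whether a listed 0 is a true absence or a failed estimate of this transcript was not tested. No fold is given for members with an input of 0 or under 0.01 FPKM.

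**Figure D1:**
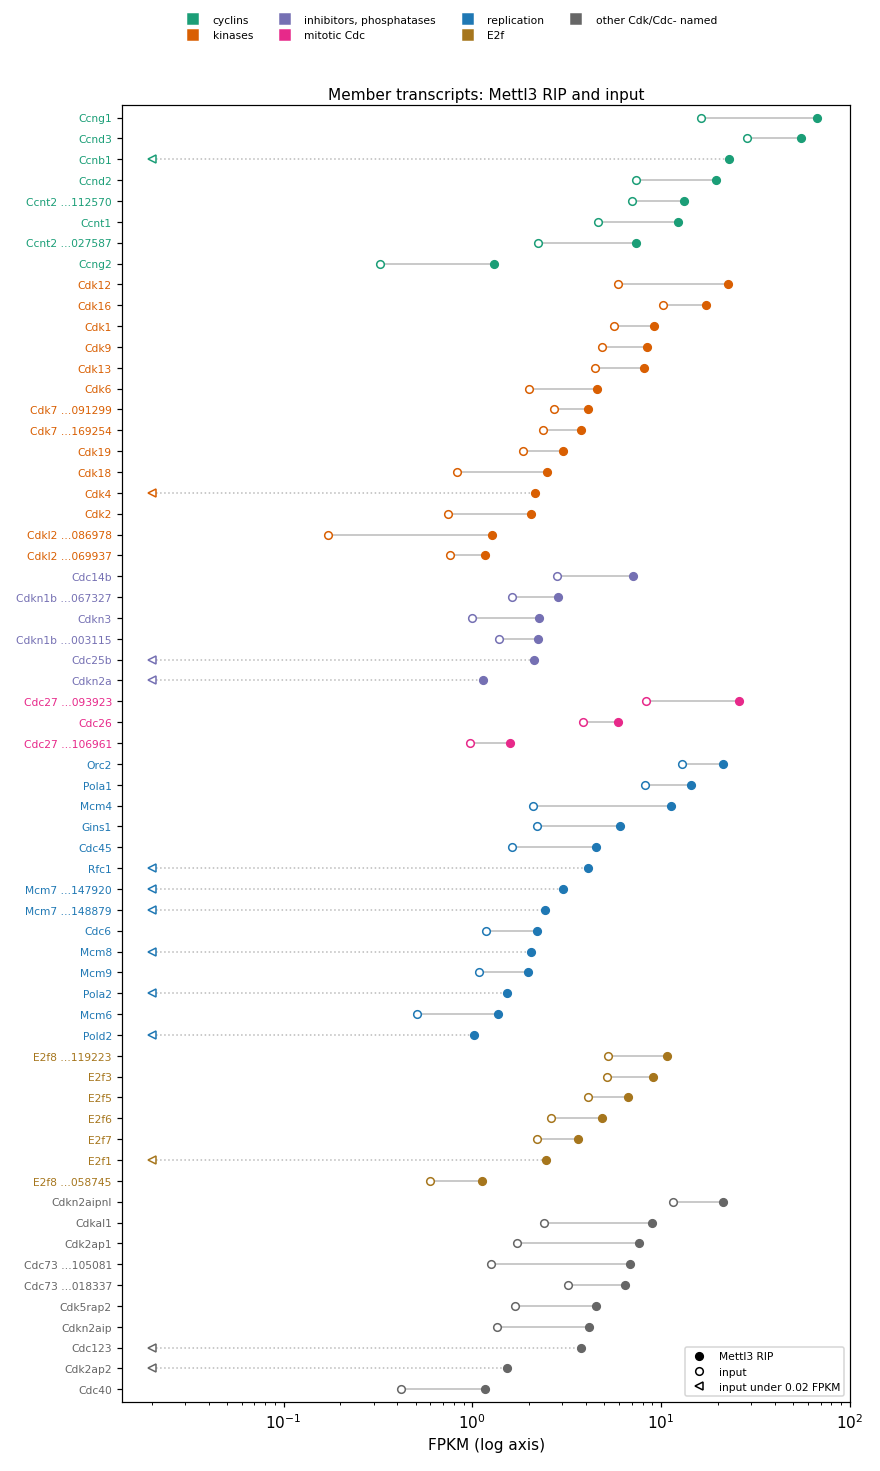
FPKM (log axis) of the 62 member transcripts of the Mettl3 table, 1 row each, grouped by role: filled points are the Mettl3 RIP, open circles the input, and open triangles at the left edge an input under 0.02 FPKM. Cyclins reach the highest levels, with Ccng1 at 67.0 FPKM, and 13 of the 62 members have an input under 0.01 FPKM.

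Kinase mRNAs were closer to the input. Over the 9 kinase transcripts whose input reached 1 FPKM, the median ratio was 1.69-fold in the Mettl3 RIP, against 2.07-fold over the 3725 transcripts of all kinds with such an input. Of the 9, 2 reached 2-fold (22.2%), against 54.3% of those 3725. Cdk12, which phosphorylates RNA polymerase II, stood apart: it had 22.7 FPKM in the Mettl3 RIP, against 5.92 FPKM in the input, 3.83-fold higher (3.30 to 4.47). Its near relative Cdk13 had 8.13 against 4.48 FPKM, 1.82-fold (1.49 to 2.23), and the intervals of these 2 ratios did not overlap. Cdk6, a partner of D-type cyclins, had 4.59 FPKM in the Mettl3 RIP and 2.00 FPKM in the input, 2.29-fold (1.89 to 2.80).

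Cdk1, the mitotic kinase, had 9.19 FPKM in the Mettl3 RIP and 5.66 FPKM in the input, 1.62-fold (1.33 to 1.99). Cdk2, the S phase kinase, was at a lower level, with 2.05 against 0.740 FPKM, 2.77-fold (1.36 to 6.22). Among kinases of transcription, Cdk9 (ENSMUST00000009699) was at 1.73-fold (8.42 against 4.86 FPKM, interval 1.23 to 2.49). The Mediator kinase Cdk19 was at 1.64-fold, with 3.04 against 1.85 FPKM. Cdk7, of the factor TFIIH, was listed with a pair of transcripts, at 4.08 against 2.71 FPKM (1.51-fold) and at 3.76 against 2.38 FPKM (1.58-fold). The interval of the first Cdk7 ratio, 0.967 to 2.40, included 1.

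Further CDKs of the PCTAIRE branch were listed, Cdk16 at 17.3 against 10.2 FPKM (1.69-fold, 1.42 to 2.02) and Cdk18 at 2.48 against 0.834 FPKM (2.97-fold, 1.83 to 5.04). Cdkl2, a CDK-like kinase, was at 1.17 and 1.27 FPKM in the Mettl3 RIP for its 2 transcripts, with inputs of 0.759 and 0.172 FPKM. The higher ratio of Cdkl2, 7.38-fold, rested on about 3.92 input fragments (interval 2.68 to 28.7). Cdk4 was listed at 2.15 FPKM in the Mettl3 RIP and at 0 FPKM in the input.

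Among the kinase inhibitors, Cdkn1b, which blocks cyclin E and Cdk2, was listed in the Mettl3 table with its transcripts at 2.83 against 1.63 FPKM (1.74-fold, 1.21 to 2.53) and at 2.22 against 1.38 FPKM (1.61-fold, 0.920 to 2.93). Only the first interval lay above 1. Cdkn3, a phosphatase of CDKs, had 2.25 FPKM in the Mettl3 RIP and 0.997 FPKM in the input, an excess with an interval of 0.768 to 8.42. Cdc14b, a phosphatase of the DNA damage checkpoint and mitosis, had 7.11 against 2.81 FPKM, 2.53-fold (1.82 to 3.59). Cdc25b, which activates CDKs before mitosis, and Cdkn2a, the Ink4a/Arf locus, were at 2.13 and 1.14 FPKM in the Mettl3 RIP and listed at 0 FPKM in the input.

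Of the anaphase-promoting complex, the ubiquitin ligase that ends mitosis, Cdc27 had the larger excess. Its transcript ENSMUST00000093923 had 25.96 FPKM in the Mettl3 RIP, against 8.29 FPKM in the input, 3.13-fold higher (2.74 to 3.60), from about 1331 fragments in the RIP. A second Cdc27 transcript was at 1.59 against 0.978 FPKM. Cdc26, a small subunit, had 5.91 against 3.85 FPKM, 1.53-fold, and its interval of 0.829 to 2.99 included 1.

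Of the 14 replication transcripts in the Mettl3 table, 7 had an input of 1 FPKM or more, with ratios between 1.64-fold and 5.37-fold and a median of 1.88-fold, against 2.07-fold over all listed transcripts with such an input. A further 6 were at 0 or under 0.01 FPKM in the input (42.9%). The share was 35.8% of all listed transcripts and 27.7% of the protein-coding ones, and the difference was not tested. Mcm4, a subunit of the replicative helicase, had 11.3 FPKM in the Mettl3 RIP, against 2.10 FPKM in the input, 5.37-fold higher, the highest ratio of the replication genes whose input reached 1 FPKM. This transcript had no length in GENCODE M21, so no interval is given. Cdc45 had 4.50 against 1.63 FPKM, 2.76-fold (1.67 to 4.81). Gins1, of the GINS complex, had 6.04 against 2.21 FPKM, 2.73-fold (1.45 to 5.58). The ratios of Mcm4, Cdc45 and Gins1 were above 2, but the intervals of Cdc45 and Gins1 reached below 2.

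Orc2 and Pola1 had higher levels than Mcm4, Cdc45 and Gins1 and ratios below 2, with intervals that overlapped those of Cdc45 and Gins1. Orc2, of the origin recognition complex, had 21.2 FPKM in the Mettl3 RIP and 13.0 FPKM in the input, 1.64-fold (1.42 to 1.89). Pola1, the catalytic subunit of the polymerase that starts each new strand, had 14.4 against 8.19 FPKM, 1.76-fold (1.52 to 2.04). Cdc6, the helicase loader, was at 1.88-fold (2.21 against 1.18 FPKM), and Mcm9, of a helicase used in repair, at 1.81-fold (1.97 against 1.09 FPKM). Mcm6 was low, with 1.37 against 0.510 FPKM.

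The 6 replication transcripts with an input near 0 were Rfc1, the large subunit of the clamp loader, at 4.08 FPKM in the Mettl3 RIP, Mcm7 at 3.01 and 2.43 FPKM for its pair of transcripts, Mcm8 at 2.04 FPKM, Pola2 at 1.53 FPKM and Pold2 at 1.02 FPKM. Mcm7 is part of the helicase, Mcm8 works with Mcm9, and Pola2 and Pold2 are accessory subunits of polymerases alpha and delta. The Pold2 transcript rested on about 7.19 fragments in the Mettl3 RIP.

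E2f mRNAs had ratios in a narrow range. Of the 8 annotated E2f genes 6 were listed for Mettl3. E2f3, an activator, had 9.07 FPKM in the Mettl3 RIP and 5.19 FPKM in the input, 1.75-fold (1.45 to 2.12). The repressors E2f5, E2f6 and E2f7 were at 1.62-fold (6.68 against 4.12 FPKM), 1.85-fold (4.84 against 2.62 FPKM) and 1.65-fold (3.64 against 2.20 FPKM), with intervals above 1 in each case. E2f8, also a repressor, had 10.7 against 5.22 FPKM for ENSMUST00000119223, 2.05-fold (1.64 to 2.59), and 1.13 against 0.596 FPKM for ENSMUST00000058745, 1.90-fold (0.979 to 3.95). E2f1, the activator best known for S phase entry, was at 2.46 FPKM in the Mettl3 RIP and listed at 0 FPKM in the input.

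Members that carry a Cdk or Cdc name but work elsewhere had the highest median ratio of the 7 groups over transcripts with an input of at least 1 FPKM, 3.09-fold over 7. Cdc73, of the Paf1 elongation complex, had 6.81 FPKM in the Mettl3 RIP and 1.26 FPKM in the input for ENSMUST00000105081 (5.43-fold, no interval), and 6.46 against 3.21 FPKM for ENSMUST00000018337 (2.01-fold, 1.72 to 2.35). Cdkal1, which modifies a tRNA, had 8.91 against 2.39 FPKM, 3.72-fold (2.59 to 5.50). Cdk2ap1, a chromatin protein, was at 4.44-fold from about 5.07 input fragments (7.64 against 1.72 FPKM, interval 1.75 to 14.3). Cdkn2aip, which binds the Arf protein, was at 3.09-fold (4.17 against 1.35 FPKM, interval 2.02 to 4.91), Cdk5rap2, of the centrosome, at 2.69-fold (4.53 against 1.68 FPKM, interval 2.19 to 3.32) and Cdkn2aipnl at 1.83-fold (21.2 against 11.6 FPKM, interval 1.48 to 2.29). The splicing factor Cdc40 had 1.17 FPKM in the Mettl3 RIP and 0.419 FPKM in the input. Cdc123, an assembly factor of translation initiation, and Cdk2ap2 were at 3.76 and 1.53 FPKM and listed at 0 FPKM in the input.

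As a list, the members did not stand away from the table. On the scale log2((RIP + 1)/(input + 1)), which understates the ratio of low transcripts, and among transcripts with a mean of RIP and input of at least 1 FPKM, 24 of 52 members reached 2-fold in the Mettl3 RIP (46.2%), against 51.1% of all 6667 listed transcripts and 48.4% of the 4954 protein-coding ones. The median log2 ratio was 0.92 over the members and 1.02 over all. Without inputs under 0.01 FPKM, a setting chosen after the values were seen, 15 of 43 members passed (34.9%), against 37.6% of all. By plain ratio, 18 of the 39 members with an input of 1 FPKM or more reached 2-fold (46.2%), against 54.3% of all such transcripts. By role, 5 of 7 cyclin transcripts, 7 of 11 replication transcripts, 2 of 12 kinase transcripts and 1 of 6 E2f transcripts passed. These groups are small, and their differences were not tested. Of the 7 replication transcripts that passed, 4 had an input under 0.01 FPKM, where a mean of at least 1 FPKM already makes a transcript pass. Among the 36 members with an input of at least 1 FPKM and a known length, 33 had a counting interval above 1. The share was 87.3% of all such transcripts and 92.9% of the protein-coding ones. Listing required 1.5-fold, which itself favours intervals above 1, for members and other transcripts alike.

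The same members were then set against the input in the Zfp217 RIP. Fewer cyclins and kinases were listed, and the replication genes were the largest group, with 17 of the 50 transcripts. Of the cyclins 4 were listed. The Ccnt2 transcript ENSMUST00000112570 had 13.4 FPKM in the Zfp217 RIP, against 7.09 FPKM in the input, 1.88-fold (1.58 to 2.26). Ccng2 was low, at 1.14 against 0.326 FPKM. Ccnb1 was at 9.85 FPKM in the Zfp217 RIP and listed at 0 FPKM in the input. Ccnl1, a cyclin of splicing, was at 4.40 FPKM in the Zfp217 RIP and 0.0307 FPKM in the input, which amounts to about 0.357 of a fragment, so no fold is given.

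Cdk9, the kinase of P-TEFb, had 16.7 FPKM in the Zfp217 RIP, against 7.96 FPKM in the input, 2.10-fold (1.57 to 2.84), for ENSMUST00000120105, a transcript other than that in the Mettl3 table. Cdk13 had 7.20 against 4.53 FPKM, 1.59-fold (1.28 to 1.98). Cdk18 had 2.72 against 0.843 FPKM, 3.22-fold (1.96 to 5.53). Cdk2 was at 2.86-fold (2.14 against 0.748 FPKM, interval 1.37 to 6.56) and Cdkl2 at 1.85-fold (1.42 against 0.768 FPKM, interval 1.02 to 3.50). Cdc7, the kinase that fires origins by phosphorylating the MCM helicase, was listed for Zfp217 with a transcript at 4.36 against 0.220 FPKM (19.8-fold, with no length in GENCODE M21 and so no interval) and another at 1.33 FPKM with an input listed at 0. Cdk11b and Cdk4 were at 1.82 and 1.41 FPKM in the Zfp217 RIP and listed at 0 FPKM in the input.

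**Figure D2:**
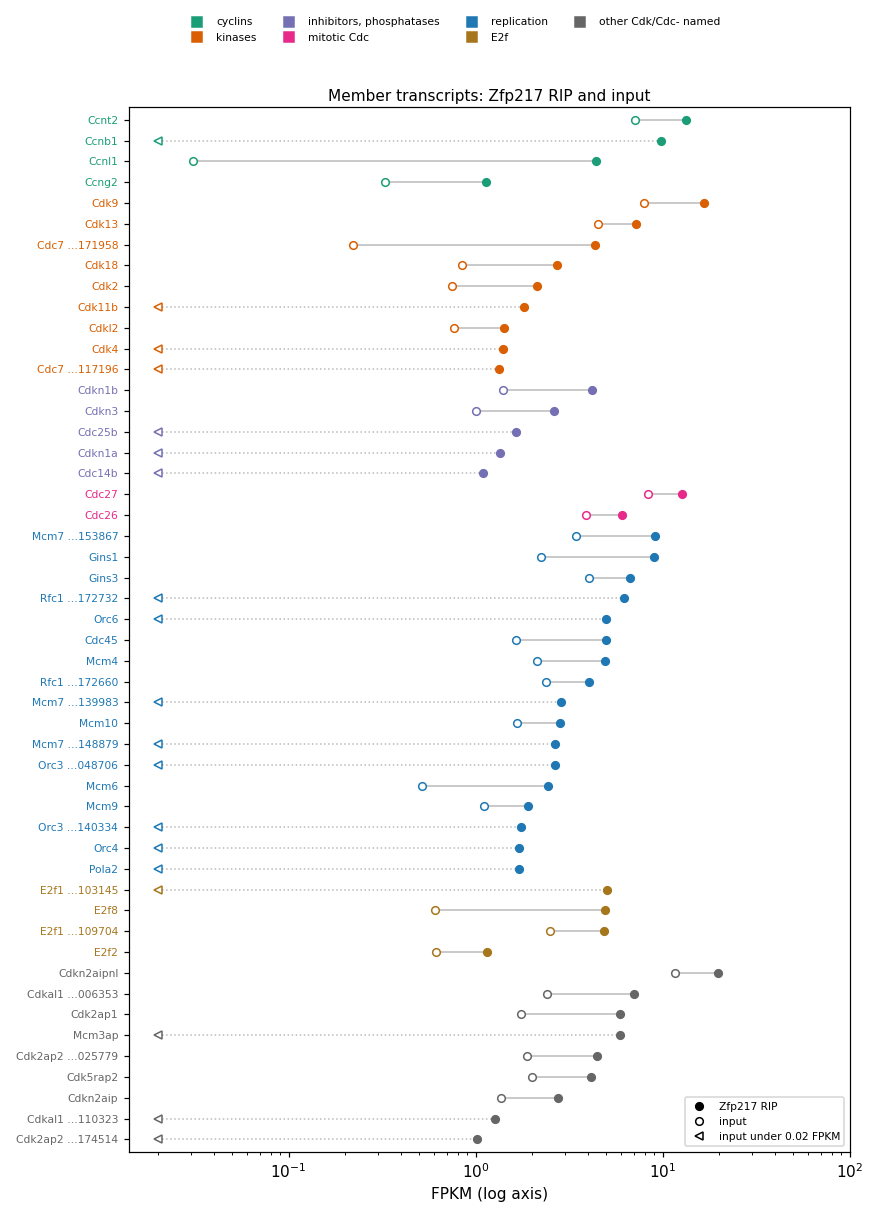
FPKM (log axis) of the 50 member transcripts of the Zfp217 table, 1 row each, grouped by role: filled points are the Zfp217 RIP, open circles the input, and open triangles at the left edge an input under 0.02 FPKM. Cdkn2aipnl, Cdk9, Ccnt2 and Cdc27 are the members above 10 FPKM in the RIP. Of the 17 replication transcripts, 8 have an input under 0.01 FPKM (47.1%), against 44.2% of all listed transcripts and 37.1% of the protein-coding ones.

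Cdkn1b was the highest of the inhibitors and phosphatases, with 4.19 FPKM in the Zfp217 RIP, against 1.399 FPKM in the input, 2.99-fold (1.76 to 5.35). Cdkn3 had 2.61 against 1.01 FPKM, with an interval of 0.851 to 9.87 around its 2.59-fold ratio. Cdc25b, Cdkn1a (the inhibitor induced by p53) and a Cdc14b transcript were at 1.65, 1.36 and 1.10 FPKM in the Zfp217 RIP and listed at 0 FPKM in the input. Of the anaphase-promoting complex, Cdc27 had 12.7 against 8.38 FPKM, 1.52-fold (1.30 to 1.78), and Cdc26 had 6.07 against 3.89 FPKM, 1.56-fold with an interval of 0.810 to 3.12.

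Among the replication genes, Gins1 was highest by ratio of those with an input of at least 1 FPKM, with 8.97 FPKM in the Zfp217 RIP, against 2.24 FPKM in the input, 4.01-fold (2.14 to 8.16). Cdc45 had 4.97 against 1.65 FPKM, 3.02-fold (1.79 to 5.31). Gins3 was nearer the limit of the table, at 6.69 against 4.02 FPKM, 1.66-fold (1.19 to 2.34). The helicase subunits were listed as Mcm4 at 4.89 against 2.12 FPKM (2.31-fold), Mcm6 at 2.45 against 0.515 FPKM (4.75-fold) and Mcm7 at 9.10 against 3.42 FPKM for ENSMUST00000153867 (2.66-fold, 1.398 to 5.43). Those of Mcm4 and Mcm6 have no interval. This Mcm7 transcript is 795 bases long and its gene has 10 annotated transcripts. A pair of further Mcm7 transcripts at 2.86 and 2.66 FPKM were listed at 0 FPKM in the input.

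Mcm10, which helps to start the fork, was at 1.70-fold (2.81 against 1.66 FPKM, interval 1.18 to 2.48), and Mcm9 at 1.73-fold (1.91 against 1.10 FPKM, interval 1.10 to 2.77). Of the origin recognition complex, Orc3, Orc4 and Orc6 were listed for Zfp217, all with an input near 0. Orc6 was at 4.97 FPKM in the Zfp217 RIP, Orc3 at 2.65 and 1.76 FPKM, and Orc4 at 1.70 FPKM. The Orc4 transcript, of 324 bases, amounted to about 2.19 fragments. Rfc1 was at 4.03 against 2.37 FPKM for ENSMUST00000172660 (1.70-fold), and at 6.25 FPKM with an input of 0.000589 FPKM for ENSMUST00000172732. Pola2 was at 1.70 FPKM and listed at 0 FPKM in the input.

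Of the E2f factors, E2f8 had the highest ratio: ENSMUST00000058745 had 4.91 FPKM in the Zfp217 RIP, against 0.605 FPKM in the input, 8.12-fold (4.51 to 15.99), from about 122 fragments in the RIP and 12.3 in the input. E2f1 was listed with a transcript at 4.86 against 2.49 FPKM (1.95-fold) and another at 5.04 FPKM with an input listed at 0. E2f2, an activator, had 1.15 against 0.617 FPKM.

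The other Cdk- and Cdc-named members held the most abundant one, Cdkn2aipnl, with 19.6 FPKM in the Zfp217 RIP, against 11.7 FPKM in the input, 1.68-fold (1.34 to 2.12). Cdkal1 had 7.01 against 2.42 FPKM, 2.90-fold (1.97 to 4.36), and Cdk2ap1 5.93 against 1.74 FPKM, 3.41-fold (1.26 to 11.5). Cdk2ap2 was at 2.38-fold (4.47 against 1.88 FPKM, interval 1.13 to 5.45), Cdk5rap2 at 2.07-fold (4.12 against 1.99 FPKM) and Cdkn2aip at 2.04-fold (2.77 against 1.36 FPKM, interval 1.27 to 3.35). Mcm3ap, an mRNA export factor named for its association with a helicase subunit, was at 5.89 FPKM in the Zfp217 RIP and listed at 0 FPKM in the input, as were further transcripts of Cdkal1 and Cdk2ap2 at 1.26 and 1.02 FPKM.

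By the same rule as before, 19 of 37 members reached 2-fold in the Zfp217 RIP (51.4%), against 49.1% of all 5248 listed transcripts and 45.2% of the 3646 protein-coding ones. The median log2 ratio was 1.01 over the members and 0.98 over all. Without inputs under 0.01 FPKM 11 of 29 passed (37.9%), against 28.4% of all. By plain ratio, 12 of the 22 members with an input of 1 FPKM or more reached 2-fold (54.5%), against 39.3% of all such transcripts, a difference of few transcripts that was not tested. By role, 9 of 14 replication transcripts passed, 5 of them with an input near 0, and 2 of 6 kinase transcripts. Among the 18 members with a known length whose input reached 1 FPKM, 16 had an interval above 1. The share was 74% of all such transcripts and 82.4% of the protein-coding ones, and the 1.5-fold cut favours such intervals here too. At this depth 5 members in the Zfp217 table and 3 in the Mettl3 table rested on fewer than 10 estimated RIP fragments.

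**Figure D3:**
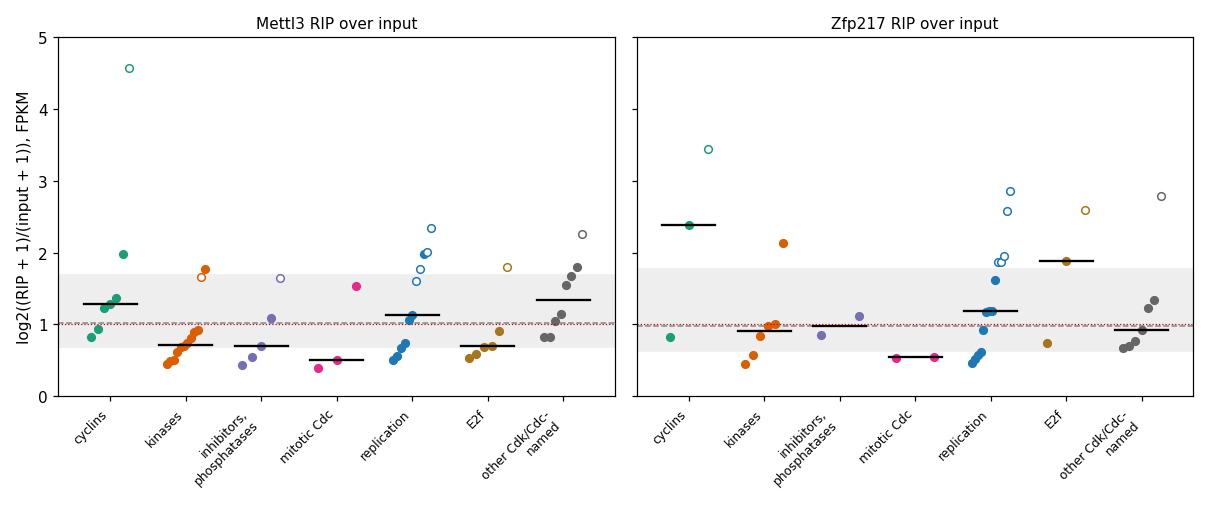
Ratios of the member transcripts with a mean of at least 1 FPKM, as log2((RIP + 1)/(input + 1)), by role, for Mettl3 (left) and Zfp217 (right); open points have an input under 0.01 FPKM and black bars are group medians. The grey band and dashed line are the quartiles and median of all listed transcripts (1.02 for Mettl3, 0.98 for Zfp217) and the dotted line is 2-fold; kinases lie mostly below the line in both panels.

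Both antibodies can be read side by side for the 20 member transcripts listed in both tables with an input of at least 0.01 FPKM. Since both ratios divide by the same input library, a low input raises both, and no overlap or correlation is given. For 18 of these transcripts a length was known, and in 16 of them the counting intervals of the 2 ratios overlapped. Intervals that did not overlap, 2 of 18 here, made up 7.51% of the 2265 transcripts of all kinds listed in both tables with such an input, and 9.21% of the 1716 protein-coding ones. The 2 members were Cdc27, at 3.13-fold for Mettl3 (2.74 to 3.60) and 1.52-fold for Zfp217 (1.30 to 1.78), and the E2f8 transcript ENSMUST00000058745, at 1.90-fold for Mettl3 (0.979 to 3.95) and 8.12-fold for Zfp217 (4.51 to 15.99). The second E2f8 transcript, at 10.7 FPKM in the Mettl3 RIP, was listed for Mettl3 alone, and E2f8 has 4 annotated transcripts between which reads had to be divided. Mcm4 was at 5.37-fold for Mettl3 and 2.31-fold for Zfp217, and Mcm6 at 2.68-fold for Mettl3 and 4.75-fold for Zfp217, without intervals. Ccnt2 (1.89-fold for Mettl3, 1.88-fold for Zfp217) and Cdk2 (2.77-fold for Mettl3, 2.86-fold for Zfp217) had nearly equal ratios.

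**Figure D4:**
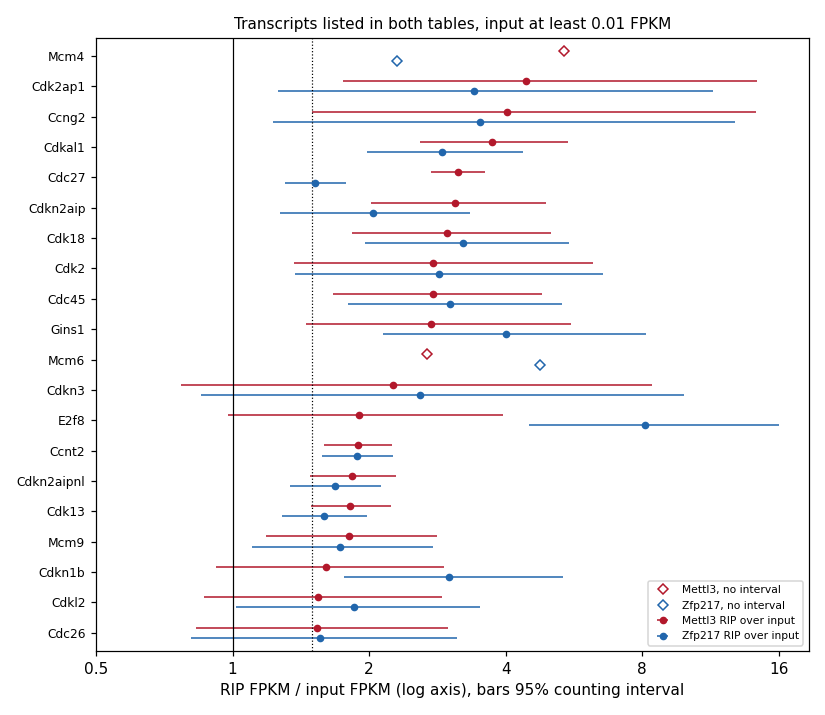
RIP over input (plain FPKM ratio, log axis) of the 20 member transcripts listed in both tables with an input of at least 0.01 FPKM, Mettl3 in red above Zfp217 in blue; bars are 95% counting intervals and open diamonds have none. The solid line is a ratio of 1 and the dotted line the 1.5-fold limit of the tables; bars of Cdc27 and E2f8 do not overlap.

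The choice of transcript mattered for several genes. All 65 member genes have 2 or more transcripts in GENCODE M21 (median 6, up to 21 for Ccnd3), so each value is that of a listed transcript, not of its gene. In 3 genes, Cdc14b, Cdk5rap2 and Cdk9, different transcripts were listed for Mettl3 and for Zfp217. Cdk9 in the Mettl3 RIP was at 8.42 FPKM for ENSMUST00000009699, and in the Zfp217 RIP at 16.7 FPKM for ENSMUST00000120105. For Cdk5rap2 the values were 4.53 FPKM in the Mettl3 RIP and 4.12 FPKM in the Zfp217 RIP.

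Of the 123 protein-coding genes that fit the naming rule in GENCODE M21, 54 were listed for Mettl3 (43.9%) and 42 for Zfp217 (34.1%), against 21.3% and 17.3% of all 21922 annotated protein-coding genes. The shares over all genes include genes that these cells do not express, whose number the tables do not give, so the difference was not tested. Replication genes were listed alike by count, 13 of 35 for each antibody. Cyclins were listed as 7 of 16 for Mettl3 and 4 of 16 for Zfp217, kinases as 12 and 8 of 25, and E2f genes as 6 and 3 of 8.

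**Figure D5:**
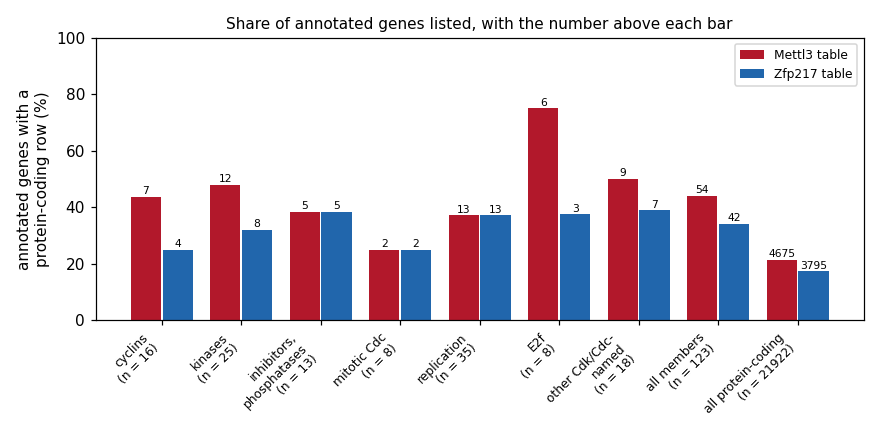
Percent of the genes annotated in GENCODE M21 that have a protein-coding row in the Mettl3 table (red) and in the Zfp217 table (blue), by role, with the number of listed genes above each bar and the number annotated (n) below it. E2f genes have the highest share for Mettl3 (6 of 8), and the rightmost bars give all 21922 protein-coding genes.

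Sequence features of the members were close to those of other listed mRNAs. The motif searched was GGACT, on the sense strand of the spliced transcript, with no other motif. Member transcripts held 0.923 GGACT per kilobase in the Mettl3 table, against 1.02 over all listed protein-coding transcripts of that table and 1.10 over all 58797 protein-coding transcripts of GENCODE M21. In the Zfp217 table members held 0.923 per kilobase, against 1.10 over all its listed protein-coding transcripts. At least 1 GGACT was present in 85.7% of 56 Mettl3 members and 79.1% of 43 Zfp217 members, against 88.7% and 84.4% of all listed protein-coding transcripts and 78.7% of those annotated. The share holding it grows with length. The median length was 3258.5 bases for Mettl3 members and 2391 for Zfp217 members, against 3159 and 2393.5 for all listed protein-coding transcripts. Members with an input near 0 had a median of 2096.5 bases, against 3968 for those whose input reached 1 FPKM in the Mettl3 table. In the Zfp217 table these medians were 2140 and 2268 bases. Cdk12 and Cdc27, shown above, held 8 and 6 GGACT over the whole transcript, Ccng1 4, the listed Cdkn1b transcripts 3 and 1, E2f8 (ENSMUST00000119223) 3, and Cdc45 and Cdk9 2 each. Cdk16, at 17.3 FPKM in the Mettl3 RIP, held none.

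Partners of the members that the naming rule leaves out were taken from a list of 62 genes (checkpoint kinases, replication factors, the Rb family, spindle checkpoint and anaphase-promoting complex genes). Of these, 23 genes with 35 transcripts were listed for Mettl3 and 25 genes with 31 transcripts for Zfp217. By the rule used above 18 of 28 partner transcripts reached 2-fold in the Mettl3 RIP (64.3%), and 8 of 18 (44.4%) without inputs under 0.01 FPKM, against 51.1% and 37.6% of all listed transcripts. In the Zfp217 RIP it was 16 of 26 (61.5%), and 6 of 16 (37.5%) without such inputs, against 49.1% and 28.4%. Mad1l1, of the spindle checkpoint, had the highest ratio for Mettl3 of those whose input reached 1 FPKM, at 8.13 FPKM in the Mettl3 RIP and 1.18 FPKM in the input, 6.87-fold (4.19 to 12.01), and it was at 5.06-fold in the Zfp217 RIP (6.05 against 1.20 FPKM, interval 3.02 to 8.98). Lig1, the ligase that joins lagging-strand fragments, had the highest ratio for Zfp217 of those whose input reached 1 FPKM. Its transcript ENSMUST00000125324 was at 16.3 FPKM in the Zfp217 RIP and 3.05 FPKM in the input (5.34-fold, no interval). In the Mettl3 RIP this Lig1 transcript was at 6.02 FPKM, against 3.02 FPKM in the input. Another Lig1 transcript in both tables, ENSMUST00000147735, went the other way, with an input under 1 FPKM. It was at 4.64-fold for Mettl3 (2.40 to 9.97) and 3.17-fold for Zfp217 (1.57 to 7.04), with intervals that overlapped. Further Lig1 transcripts were listed for Zfp217 alone. Ccnc, the cyclin of the Mediator kinase, was next for Mettl3 among genes whose input reached 1 FPKM, at 6.45 FPKM in the Mettl3 RIP and 1.93 FPKM in the input for ENSMUST00000102997 (3.34-fold, 2.33 to 4.90).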

How the data were processed

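The authors deposited 2 tables of FPKM values per Ensembl transcript, 1 per antibody, each with the RIP and the input. The tools were Cufflinks, Cuffdiff, TopHat2 2.0.8, Bowtie2 and CASAVA 1.4 with the mouse build mm9, per the submitters' processing notes, which state no role for any of them here. That the values are FPKM was taken from these tools and the values. The deposited log2 fold change (a column of other values because of its code for infinity) lay within 0.00466 of that computed from the FPKM columns. Groups came from sample titles and antibody labels. The members, lists and rules were chosen with earlier results of these data known.

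From these files, log2((RIP + 1)/(input + 1)) and plain ratios were computed within each table, with a mean of at least 1 FPKM and 2-fold as the threshold. Genes to be named were, per role and table, the 3 highest ratios, the lowest ratio and the 2 highest levels, members in both tables, and the 2 partner genes with the highest ratio. Here every member is named. Other settings were another pseudocount, plain ratios, other filters, 1 transcript per gene and centring. Depth was estimated from noncoding RNAs of 200 to 400 bases. The depths and the offset of 140 bases were chosen so that FPKM times (length - 140) came out whole (within 0.05 fragments) as often as possible. This was so in 20 of 24, 22 of 24 and 5 of 5 for the Mettl3 RIP, Zfp217 RIP and input. These counts were what the choice maximised, so they do not test the depth. Depth is least certain for the input, which had the fewest such RNAs. The shared input was scaled differently in the 2 tables (by 0.989, Mettl3 over Zfp217). Intervals are Clopper-Pearson at 95% on estimated fragments. They cover counting error only and miss the error of dividing reads between transcripts. Nor are they corrected for the 1.5-fold cut of the tables, which favours intervals above 1. Lengths, sequences and GRCm38 coordinates came from GENCODE M21, which matched 56 of 62 and 43 of 50 members; no coordinate was taken from mm9. Python 3.11.15 and SciPy 1.17.1 were used, and the code was tested on simulated data.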

Additional observations from a re-analysis of the deposited data

How the results depend on the processing

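Unless plain ratios are named, counts here use log2((RIP + 1)/(input + 1)). The 2-fold counts given above for inputs of at least 1 FPKM were by plain ratio. In the Mettl3 RIP 24 of 52 members reached 2-fold, against 51.1% of all listed transcripts. It was 15 of 39 with an input of at least 1 FPKM and 3 of 52 after centring on the table median of 1.02. With an input of at least 0.01 FPKM (a setting added after the data were seen) it was 15 of 43, against 37.6% of all. In the Zfp217 RIP it was 19 of 37, against 49.1% of all listed transcripts. It was 30 of 50 with no filter on FPKM and 6 of 22 with an input of at least 1 FPKM. With an input of at least 0.01 FPKM it was 11 of 29, against 28.4% of all. After centring on the table median of 0.98 it was 7 of 37. Shares over all are not given for the other settings, so those counts do not compare the members with the table. After centring, a transcript passes only at 2-fold above the table median, a stricter rule for members and other transcripts alike. The upper quartile of all listed transcripts with a mean of at least 1 FPKM also fell short of that rule. Before centring this quartile was a log2 ratio of 1.69 for Mettl3 and 1.78 for Zfp217. Fewer transcripts enter where inputs near 0 are left out. The median log2 ratio for Mettl3 was 0.92, and it was 1.23 with a pseudocount of 0.1 FPKM and -0.10 after centring. For Zfp217 it was 1.01, and it was 1.399 with a pseudocount of 0.1 FPKM, 0.80 with an input of at least 1 FPKM and 0.031 after centring. Centring subtracts the median of all kept transcripts, so the members lay within 0.1 of it in both tables. Plain ratios and 1 transcript per gene left each count within 1.5 times its value above. No paired analysis was possible because each group had 1 library, and no library could be left out. Depth limits the low members most, and an input of 0 FPKM gives no fold.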

Other observations

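Transcripts of the same genes that are not annotated as coding were listed too: 48 of 26 gene symbols for Mettl3 and 49 of 33 for Zfp217, mostly retained-intron transcripts (23 for Mettl3, 24 for Zfp217) and processed transcripts (19 for Mettl3, 17 for Zfp217). Of these 25 for Mettl3 and 27 for Zfp217 had an input under 0.01 FPKM, as did 52.4% of all 3098 listed transcripts not annotated as coding for Mettl3 and 56.1% of all 3038 for Zfp217. For 16 of the gene symbols in the Mettl3 table, and 17 in the Zfp217 table, no coding transcript was listed in the same table. Cdk8, the kinase of Mediator, was listed for Mettl3 by a retained-intron transcript at 13.3 FPKM in the Mettl3 RIP and 0 FPKM in the input. Cdk4 had a nonsense-mediated decay transcript at 11.9 FPKM in the Mettl3 RIP and 0.0202 FPKM in the input, and at 14.1 FPKM in the Zfp217 RIP and 0.0234 FPKM in the input, above its coding transcript at 2.15 FPKM in the Mettl3 RIP and 1.41 FPKM in the Zfp217 RIP. Mcm10 had a retained-intron transcript at 8.51 FPKM in the Zfp217 RIP and 0 FPKM in the input.

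Rfc5, of the clamp loader, had a retained-intron transcript at 15.1 FPKM in the Mettl3 RIP, against 7.23 FPKM in the input, 2.09-fold (1.01 to 4.76). Pole4, a subunit of polymerase epsilon, had a processed transcript at 15.97 FPKM in the Mettl3 RIP, against 8.66 FPKM in the input (1.84-fold, 1.27 to 2.74), and at 14.4 FPKM in the Zfp217 RIP, against 8.76 FPKM in the input (1.65-fold, 1.10 to 2.51). Orc3 had a processed transcript at 6.98 FPKM in the Mettl3 RIP, against 1.78 FPKM in the input (3.92-fold, 1.79 to 10.0), and at 6.24 FPKM in the Zfp217 RIP, against 1.80 FPKM in the input (3.47-fold, 1.52 to 9.13). Cdc73 had a processed transcript at 11.8 FPKM in the Mettl3 RIP, against 2.50 FPKM in the input (4.72-fold, 3.43 to 6.63), and at 4.12 FPKM in the Zfp217 RIP, against 2.53 FPKM in the input (1.63-fold, 1.12 to 2.41). The intervals of the Cdc73 transcript did not overlap between the antibodies. The same held for 7.51% of the 2265 transcripts of all kinds listed in both tables with an input of at least 0.01 FPKM. Whether the Cdc73 difference stands out from these was not tested.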
